A study of Mus musculus with 12 samples.

Results

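The genes described here are 10 feedback inhibitors of the RAS and MAP kinase pathway: the phosphatase genes Dusp1, Dusp2, Dusp4, Dusp5, Dusp6 and Dusp10, the Sprouty genes Spry1, Spry2 and Spry4, and the Sprouty-related gene Spred1. They were taken by gene name from the scanner output, with every probe and all 12 arrays. Of the 10 genes, 9 had at least 1 probe (14 probes in all), and 8 genes with 12 probes passed the filter on dim probes, out of 17925 genes tested. Dusp5 had no probe under its name, its older symbol or its RefSeq accession, so it has no value here. Both probes of Spry4 were below the filter.

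The arrays held RNA of mouse CD4+ T cells (strain C57BL/6) that had been isolated as naive cells from spleen and lymph nodes, activated with anti-CD3 and anti-CD28, expanded on day 3 and harvested after 5 days. Th2 cultures received IL-4 (20 ng/ml) with an antibody to IFN-γ, and Th9 cultures received both plus TGF-β (2 ng/ml), with IL-4 and TGF-β renewed at expansion. Treg cultures received TGF-β (2 ng/ml) with an antibody to IL-4, and IL-2 at expansion. In the fourth group, called stimulated Th9 here, Th9 cultures were exposed again to anti-CD3 (1 µg/ml) for 6 h after the 5 days. Each group had 3 arrays, and the labels do not say whether these came from separate animals or cultures, so a p-value here weighs a difference against the scatter of these arrays, which may be purely technical. All cells had been activated through CD3 at the start, so every group is a culture of previously activated cells, and a fall in the RNA per cell cannot be told apart from a smaller share of the cells that make it.

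When a T cell receptor or a growth factor receptor is engaged, RAS activates a chain of kinases that ends in the MAP kinase ERK. Other chains of kinases end in the MAP kinases p38 and JNK. The dual-specificity phosphatases encoded by the Dusp genes switch MAP kinases off by removing phosphate from both the threonine and the tyrosine of the activation loop. Sprouty and SPRED proteins act further up, on RAS and RAF, and many genes of both families are themselves switched on by ERK, which makes them negative feedback regulators. In T cells this circuit is known for limiting the strength and duration of the response to antigen.

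The promoters of Dusp2, Dusp6 and Dusp1 are shown because the first 2 genes had higher and the last had lower levels after restimulation. Each sequence is the 250 bases before the RefSeq transcription start, on the strand of the gene, in the build GRCm38.p6: chr2:127335909-127336158 (plus strand) for Dusp2, chr10:99262981-99263230 (plus strand) for Dusp6 and chr17:26508473-26508722 (minus strand) for Dusp1. Capitals mark a match to 1 of 7 motifs of factors activated through MAP kinase, calcium or NF-kB signals.
Dusp2: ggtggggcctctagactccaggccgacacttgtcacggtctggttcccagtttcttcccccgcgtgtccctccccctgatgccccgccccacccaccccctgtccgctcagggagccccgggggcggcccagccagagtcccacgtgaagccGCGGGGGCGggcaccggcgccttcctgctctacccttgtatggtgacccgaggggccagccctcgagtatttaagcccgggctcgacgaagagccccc
Dusp6: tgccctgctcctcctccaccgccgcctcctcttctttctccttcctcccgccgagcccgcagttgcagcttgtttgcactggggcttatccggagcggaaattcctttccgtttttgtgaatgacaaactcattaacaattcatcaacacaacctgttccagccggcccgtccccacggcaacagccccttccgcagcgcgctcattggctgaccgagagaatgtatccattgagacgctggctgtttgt
Dusp1: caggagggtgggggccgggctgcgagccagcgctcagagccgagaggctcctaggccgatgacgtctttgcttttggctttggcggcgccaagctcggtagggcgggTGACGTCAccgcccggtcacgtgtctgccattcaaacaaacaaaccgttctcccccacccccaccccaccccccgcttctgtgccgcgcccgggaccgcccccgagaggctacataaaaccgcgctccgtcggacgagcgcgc
The match in Dusp2 was an EGR site (GCGGGGGCG, 98 bases before the start), a motif held by 2.57% of 32851 mouse promoters of this length. The match in Dusp1 was a cyclic AMP response element (TGACGTCA, 143 bases before the start), which reads the same on both strands and was held by 1.55%. Dusp6 had none of the 7 motifs in this window. The others searched, on both strands, were the AP-1 site (TGANTCA, 6.75% of promoters), the ETS site (CCGGAAG, 6.91%), the NFAT site (TGGAAA, 18.6%), the serum response element (1.47%) and an NF-kB site (7.91%). Of the 8 genes with a promoter entry, only Dusp5 held any other match: 2 serum response elements, 82 and 72 bases before its start, of which the first overlaps an NF-kB match. Dusp4 and Spry4 had no promoter entry. A match describes the letters of the window and is not evidence that a factor binds there.

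Levels are log2 signal relative to the 75th percentile of each array, so 0 is the percentile itself. Arrays of the same group correlated at 0.9881 to 0.9954, and 59.9 to 63.7% of probes per array were well above background. Transcripts that define the cultures separated some groups and not others. Il9 was at a mean level of -1.75 in Th9 and 5.43 in stimulated Th9 cells and was not well above background in Th2 or Treg cells, and Foxp3 was at 0.53 in Treg, -2.04 in Th9 and -1.73 in stimulated Th9 cells, with no Th2 array well above background. Gata3, a Th2 factor, was at 4.71 in Th2 and 4.96 in Th9 cells, which did not pass the test (adjusted p = 0.335), and at 3.11 in Treg cells. Il4 was at 4.97 in Th2 and 3.90 in Th9 cells (adjusted p = 0.0926) and was well above background on 1 of the 3 Treg arrays, so neither transcript set Th2 apart from Th9 cells. The summed level of 10 T cell markers was 8.60 to 8.96 on the Treg arrays and 7.68 to 8.11 on the others. The arrays sat on 3 slides that did not hold every group. Slide 1 held the 3 Th2 arrays and Treg array 1, slide 2 held Treg arrays 2 and 3 and stimulated arrays 1 and 2, and slide 3 held the 3 Th9 arrays and stimulated array 3. Transcripts of other cell types differed between the groups. The summed level of 10 B cell markers, led by Cd79b and Ms4a1, was 5.84 to 6.29 on the Treg arrays, 2.37 to 2.78 on the Th9 arrays, 1.43 to 2.17 on the Th2 arrays and 1.02, 1.30 and -0.42 on stimulated arrays 1, 2 and 3. The summed level of 6 CD8 T cell and NK cell markers was 3.93 or higher on stimulated arrays 1 and 2 and 1.47 on array 3, against 4.50 to 4.89 on the Th9 arrays, 3.87 to 4.24 on the Th2 arrays and 4.54 to 5.44 on the Treg arrays. The summed level of myeloid and dendritic cell markers was -0.12 to 0.18 on the stimulated arrays and 0.69 to 1.66 on the others, while the macrophage gene Lyz2 was well above background in Treg cells only (mean 0.39). Stimulated array 3 stood apart from the other 2 in B cell and CD8 and NK cell markers as well as in slide.

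Restimulation through CD3 was followed by higher levels of Dusp2, Dusp6, Spry1 and Spred1 and lower levels of Dusp1 and Dusp10. Dusp2 rose 5.20-fold, Spry1 4.93-fold, Spred1 3.16-fold and Dusp6 3.13-fold, while Dusp10 fell 2.92-fold and Dusp1 1.64-fold. Dusp4 and Spry2 did not pass the test on their brighter probe. That makes 6 of the 8 tested genes, in a comparison in which 64% of all genes tested were called (adjusted p under 0.05 in limma), 31.9% higher and 32% lower. The share of called genes among the members is near this background. The median log2 difference was 0.69 over the 8 genes and -0.02 over all genes, and the 5th to 95th percentile of all genes ran from -2.16 to 2.06, a range that Dusp2 and Spry1 exceeded. All 6 calls were kept with the slide as a block, which here equals the comparison of stimulated array 3 with the 3 Th9 arrays on the same slide. That leaves 1 stimulated array, which is assumed to vary like the arrays of the other groups.

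**Figure D1:**
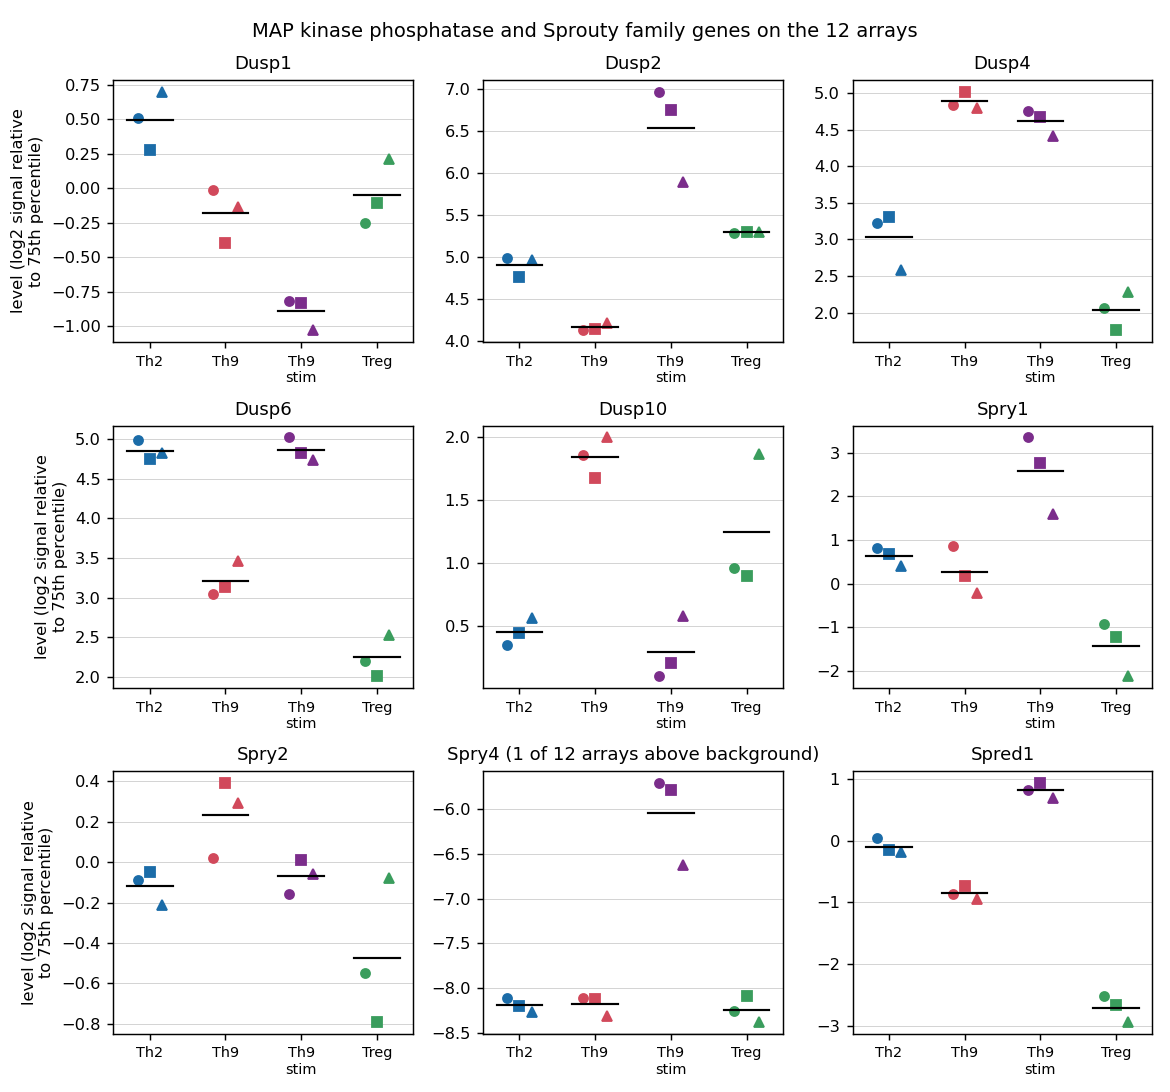
Level of each gene with a probe on each of the 12 arrays, on the brighter probe where a gene has several. The vertical axis is log2 signal relative to the 75th percentile of the array, with its own range in each panel. Circles, squares and triangles are replicates 1, 2 and 3, and lines are group means (n = 3). Dusp2, Dusp6, Spry1 and Spred1 are higher in stimulated Th9 than in Th9 cells without overlap. On the probe shown Dusp4 is highest in the Th9 groups, and Spry4 was detected on 1 array.

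Dusp2 encodes a nuclear phosphatase of ERK that is found mainly in activated lymphocytes. Its level was 4.13, 4.15 and 4.21 on the Th9 arrays, 6.97, 6.75 and 5.90 on the stimulated arrays, 4.99, 4.76 and 4.96 on the Th2 arrays and 5.29, 5.30 and 5.30 on the Treg arrays (probe at chr2:127029635-127029694, mm8). The stimulated arrays were above all others, and the 3 Th9 arrays were below all others. The log2 difference between stimulated and unstimulated Th9 cells was 2.38 ± 0.22 (SE; adjusted p = 4.16e-06). On slide 3 alone, with the lowest of the stimulated arrays, it was 1.74 (adjusted p = 4.81e-05 with the slide block), and without that array it was 2.70; over all alternatives the adjusted p lay between 1.84e-07 and 0.000436. The order of the means was stimulated Th9, Treg, Th2 and Th9. The neighbours Treg and Th2 differed by less than the test requires (-0.40 ± 0.22, Th2 minus Treg; adjusted p = 0.138), although their arrays did not overlap.

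Dusp1, the prototype of the family and itself an immediate early gene in many cells, encodes a nuclear phosphatase that acts on p38, JNK and ERK. Its level was 0.51, 0.28 and 0.70 on the Th2 arrays, -0.01, -0.40 and -0.14 on the Th9 arrays, -0.82, -0.83 and -1.03 on the stimulated arrays and -0.25, -0.11 and 0.21 on the Treg arrays (probe at chr17:26233451-26233508, mm8). Stimulated arrays were the lowest and Th2 arrays the highest, with Th9 and Treg arrays overlapping between them. At 6 h the log2 difference, stimulated minus unstimulated Th9, was -0.71 ± 0.16 (adjusted p = 0.00222), and on slide 3 it was -0.84.

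Dusp4 encodes a nuclear relative of Dusp1 with a similar range of kinases. On its brighter probe (chr8:36290269-36290328, mm8) the level was 4.84, 5.02 and 4.80 on the Th9 arrays, 4.76, 4.67 and 4.41 on the stimulated arrays, 3.23, 3.31 and 2.58 on the Th2 arrays and 2.07, 1.76 and 2.28 on the Treg arrays. On this probe all 6 Th9 arrays, stimulated or not, were above every Th2 and Treg array. The difference with stimulation was -0.28 ± 0.20 (95% interval -0.72 to 0.16; adjusted p = 0.252). The second probe, 2761 bases away at chr8:36287508-36287567, fell from 3.78 ± 0.24 (SD, n = 3) to 2.45 ± 0.14, a log2 difference of -1.33 ± 0.24 (SE; adjusted p = 0.000608 over all probes). The fall on the brighter probe passed the test with quantile normalization (-0.55, adjusted p = 0.0221) and with the authors' deposited log2 values (-0.55, adjusted p = 0.022). The mean of both probes also passed (-0.81, adjusted p = 0.00651), while over all alternatives the adjusted p reached 0.516. The probes shared a direction with stimulation and differed in size. On the second probe the stimulated arrays (2.49, 2.29 and 2.56) overlapped with the Th2 arrays (2.93, 3.10 and 2.10). The unstimulated Th9 arrays (3.99, 3.84 and 3.51) lay above both. The brighter probe was designed from a cDNA clone and the second from a RefSeq transcript. Which transcripts of Dusp4 each probe binds was not examined.

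Dusp6 encodes a cytoplasmic phosphatase specific for ERK and is widely used as a readout of ERK activity. Its level was 3.04, 3.13 and 3.46 on the Th9 arrays and 5.02, 4.83 and 4.73 on the stimulated arrays (probe at chr10:98697039-98697098, mm8). It was 4.99, 4.75 and 4.82 on the Th2 arrays and 2.20, 2.01 and 2.53 on the Treg arrays. The Th2 and stimulated Th9 arrays overlapped and lay above all Th9 arrays, which in turn lay above all Treg arrays. Stimulated minus unstimulated Th9 was 1.65 ± 0.16 (SE; adjusted p = 5.39e-06), with 1.52 on slide 3 and 1.71 without stimulated array 3.

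Dusp10 encodes a phosphatase that prefers the stress kinases p38 and JNK to ERK. Its level was 1.86, 1.68 and 2.00 on the Th9 arrays and 0.10, 0.20 and 0.58 on the stimulated arrays, so the groups were well separated (probe at chr1:185775985-185776044, mm8). It was 0.35, 0.44 and 0.56 on the Th2 arrays, within the range of the stimulated arrays, and 0.96, 0.90 and 1.87 on the Treg arrays, of which array 3 fell among the Th9 arrays. Stimulated minus unstimulated Th9 was -1.55 ± 0.24 (adjusted p = 0.000171), opposite in sign to Dusp2 and Dusp6. The value on slide 3 was -1.26.

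Spry1, a Sprouty gene that is induced in T cells by receptor signals, had the widest span of group means of the 8 genes. Its level was 0.85, 0.17 and -0.21 on the Th9 arrays, 3.35, 2.77 and 1.59 on the stimulated arrays, 0.82, 0.67 and 0.40 on the Th2 arrays and -0.93, -1.23 and -2.12 on the Treg arrays (probe at chr3:37835821-37835880, mm8). Every stimulated array was above and every Treg array below the rest, while the Th9 and Th2 arrays overlapped. It also had the largest spread within groups (SD 0.90 in stimulated and 0.54 in Th9 cells). The difference with stimulation was 2.30 ± 0.45 (SE; adjusted p = 0.000935), 1.32 on slide 3 (adjusted p = 0.0386 with the slide block) and 2.79 without stimulated array 3, and the adjusted p lay between 2.72e-05 and 0.0386 over all alternatives. That array was the lowest of its group for Spry1 and Dusp2, and also for the B cell and the CD8 and NK cell markers; the part of these markers in the result was not tested.

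Spry2 had 2 probes that disagreed. On the brighter probe (chr14:104778283-104778342, mm8) the level was 0.02, 0.39 and 0.29 on the Th9 arrays, -0.16, 0.01 and -0.06 on the stimulated arrays, -0.09, -0.05 and -0.21 on the Th2 arrays and -0.55, -0.79 and -0.08 on the Treg arrays. The change with stimulation was -0.30 ± 0.17 (95% interval -0.68 to 0.08; adjusted p = 0.141). On the dimmer probe, designed from a cDNA clone and 516 bases away, the level was -4.92, -4.51 and -5.20 on the Th9 arrays and -3.52, -3.81 and -4.68 on the stimulated arrays, which overlapped. Its difference of 0.87 ± 0.32 had the opposite sign (adjusted p = 0.0325 over all probes). No direction is given for Spry2 after stimulation for that reason.

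Spry4, a Sprouty gene that responds strongly to ERK in other cell types, was at the limit of detection. One of its probes was well above background on stimulated array 1 and on no other array. Its level there was -5.71, with -5.79 and -6.63 on stimulated arrays 2 and 3, against -8.38 to -8.09 on the 9 unstimulated arrays. The stimulated arrays did not overlap with the others. Their mean was 1.08-fold above the faintest signals that the scanner software accepts on the Th9 arrays. Only stimulated array 1 was itself well above background, so this is not a lower bound on a rise of Spry4. Its other probe stayed within background throughout.

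Spred1, which brings the RAS inactivator neurofibromin to the membrane, had 3 tested probes that all rose with stimulation. On the brightest probe (chr2:116873555-116873614, mm8) the level was -0.87, -0.73 and -0.94 on the Th9 arrays, 0.82, 0.93 and 0.69 on the stimulated arrays, 0.04, -0.16 and -0.19 on the Th2 arrays and -2.52, -2.67 and -2.94 on the Treg arrays. The 4 groups did not overlap anywhere, in the order stimulated Th9, Th2, Th9 and Treg. The difference with stimulation was 1.66 ± 0.13 (SE; adjusted p = 1.18e-06) on this probe, 2.13 ± 0.28 (adjusted p = 5.63e-05) and 2.18 ± 0.38 (adjusted p = 0.000473) on the others, which lie up to 10129 bases away. The last of these was well above background on only 1 of the 3 Th9 arrays, so its difference is uncertain in size. On slide 3 the brightest probe gave 1.54. That probe was designed from a cDNA clone, and the others from a RefSeq transcript.

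**Figure D2:**
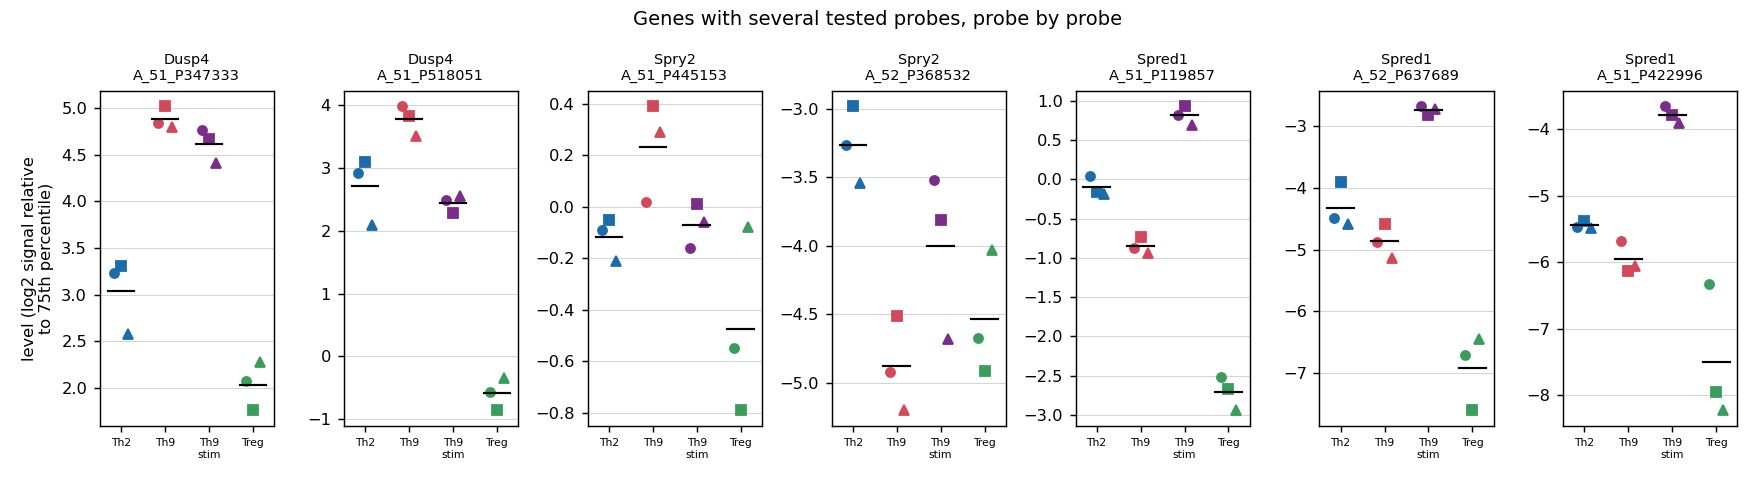
Level on each array for the 7 tested probes of Dusp4, Spry2 and Spred1, in log2 signal relative to the 75th percentile of the array, with symbols and lines as in the plot of all genes and a separate range in each panel. The 3 probes of Spred1 place stimulated Th9 cells highest and Treg cells lowest, the probes of Spry2 order the groups differently, and the second probe of Dusp4 shows a larger fall with stimulation than the first.

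Between the unstimulated cultures, Th9 cells had more Dusp4 and Dusp10 and less Dusp6, Spred1, Dusp2 and Dusp1 than Th2 cells. The Th9 cultures differed from the Th2 cultures by TGF-β and by the renewal of IL-4 and TGF-β at expansion. Dusp4 was higher by 1.85 ± 0.20 (SE, log2; 3.60-fold; adjusted p = 2e-04) and by 1.07 ± 0.24 on its second probe (adjusted p = 0.0147). Dusp10 was higher by 1.39 ± 0.24 (2.63-fold; adjusted p = 0.0032). Dusp6, the ERK phosphatase, was 3.12-fold lower (-1.64 ± 0.16; adjusted p = 9.96e-05). Spred1 was 1.68-fold lower (-0.75 ± 0.13; adjusted p = 0.00355), but its other probes gave -0.54 and -0.51 and did not pass (adjusted p = 0.222 and 0.404), the latter on a probe well above background on 1 Th9 and 2 Th2 arrays. Dusp2 (-0.74 ± 0.22; adjusted p = 0.0434) and Dusp1 (-0.68 ± 0.16; adjusted p = 0.015) were lower by less than 1 log2 unit. Spry1 did not pass (-0.36 ± 0.45; 95% interval -1.36 to 0.64; adjusted p = 0.633), and the probes of Spry2 gave 0.35 (adjusted p = 0.182) and -1.61 (adjusted p = 0.00749).

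These 2 higher and 4 lower calls among 8 genes stand beside 17.1% of all genes called, 7.91% higher and 9.18% lower. Th9 and Th2 arrays never shared a slide, so the slide block links them only through the other groups. With the slide as a block none of the 6 calls was kept: Dusp4 gave 2.20 (adjusted p = 0.0677), Dusp6 -1.52 (adjusted p = 0.104), Dusp1 -0.78 (adjusted p = 0.379), Dusp10 0.54 (adjusted p = 0.753), Spred1 -0.27 (adjusted p = 0.767) and Dusp2 0.22 (adjusted p = 0.796). Spry1, not called either way, moved to 1.86 (adjusted p = 0.305). The sizes for Dusp4, Dusp6 and Dusp1 were close to those without the block, those for Dusp10 and Spred1 were less than the values above, and Dusp2 changed sign. The Dusp1 call was also lost without Th2 replicate 3 (-0.58, adjusted p = 0.0542) or Th9 replicate 2 (-0.58, adjusted p = 0.0614), and the Dusp2 call passed in 7 of 22 alternatives (adjusted p from 0.001 to 0.796). With the replicate number as a block Dusp2 was not called (-0.74, adjusted p = 0.0527). Over all alternatives the adjusted p lay between 5.84e-05 and 0.0677 for Dusp4, 7.95e-06 and 0.104 for Dusp6, 0.000216 and 0.753 for Dusp10, 0.000677 and 0.767 for Spred1 and 0.00892 and 0.379 for Dusp1. Among 10 B cell markers, Th9 cells exceeded Th2 cells in 4 and were below them in 1, and among 6 CD8 and NK markers they exceeded them in 1; their part in these differences was not tested.

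Treg cells had the lowest means of Dusp4, Dusp6, Spry1, Spred1 and the brighter Spry2 probe of the 4 groups. Against Th9 cells, 6 of 8 genes were higher in Th9 and 1 was lower, where 64.3% of all genes were called, 28.1% higher and 36.2% lower. The largest difference was that of Dusp4, 2.85 ± 0.20 (7.21-fold; adjusted p = 6.48e-07), with 4.37 ± 0.24 on its second probe (20.7-fold). Spred1 was higher in Th9 cells by 1.86 ± 0.13 (adjusted p = 5.87e-07), Spry1 by 1.70 ± 0.45 (adjusted p = 0.00648), Dusp6 by 0.97 ± 0.16 (adjusted p = 0.00032) and Spry2 by 0.71 ± 0.17 (adjusted p = 0.00356). The second Spry2 probe gave -0.34 (adjusted p = 0.368), so the Spry2 direction rests on the brighter probe. Dusp10 was higher by 0.60 ± 0.24 (adjusted p = 0.0442) with overlapping arrays, and it passed in 9 of 22 alternatives (adjusted p from 0.000665 to 0.959). Dusp2 went the other way and was 2.20-fold lower in Th9 cells (-1.14 ± 0.22; adjusted p = 0.00101). Dusp1 did not pass (-0.14 ± 0.16; 95% interval -0.49 to 0.21; adjusted p = 0.467). Th9 and Treg arrays shared no slide, and with the slide block Dusp4 (3.17), Spry1 (3.42), Spred1 (2.14) and Dusp6 (1.14) kept their calls, while Dusp2 (-0.18, adjusted p = 0.508), Dusp10 (0.03, adjusted p = 0.959) and Spry2 (0.66, adjusted p = 0.166) lost theirs. Over all alternatives the adjusted p lay between 5.99e-06 and 0.508 for Dusp2 and 0.000255 and 0.478 for Spry2.

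Against Treg cells, 5 of these genes were higher in Th2 cells, 1 lower and 2 not called, beside 63.1% of all genes (28.6% higher, 34.6% lower). Dusp4, Dusp6, Spry1 and Spred1 were lower in Treg cells than in Th9 and in Th2 cells. Compared with Treg cells, Dusp10 was called higher in Th9 and lower in Th2 cells. Dusp2 and Spry2 were called only against Th9 cells and Dusp1 only against Th2 cells. Both comparisons share the Treg arrays. Spred1 (2.61 ± 0.13; adjusted p = 6.34e-08) and Dusp6 (2.61 ± 0.16; adjusted p = 2.56e-07) differed most, each about the value seen on slide 1, where the 3 Th2 arrays and Treg array 1 gave 2.42 and 2.66. Spry1 was higher in Th2 cells by 2.06 ± 0.45 (adjusted p = 0.0021), Dusp4 by 1.00 ± 0.20 (adjusted p = 0.00122; 3.30 ± 0.24 on its second probe) and Dusp1 by 0.55 ± 0.16 (adjusted p = 0.0108). Dusp10 was lower (-0.79 ± 0.24; adjusted p = 0.0127), a call lost on slide 1 (-0.51, adjusted p = 0.206 with the slide block, from 0.00278 to 0.206 over all alternatives). Spry2 gave 0.36 ± 0.17 (adjusted p = 0.0845) and, on its dimmer probe, 1.27 ± 0.32 (adjusted p = 0.00487). Markers of several cell types went with these contrasts. Of 10 B cell markers, 9 were lower in Th9 and 10 lower in Th2 than in Treg cells. Of 9 myeloid and dendritic cell markers, 6 were lower and 2 higher in Th9 cells and 5 lower and 2 higher in Th2 cells, with Lyz2 at least 93.2-fold and 81.4-fold lower. Of 10 T cell markers, 6 were lower and 1 higher in Th9 cells and 7 lower and 1 higher in Th2 cells. Their part in the result was not tested. The median log2 difference of all genes was -0.13 for Th9 minus Treg and -0.11 for Th2 minus Treg, against 0.84 and 0.77 for the 8 genes.

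**Figure D3:**
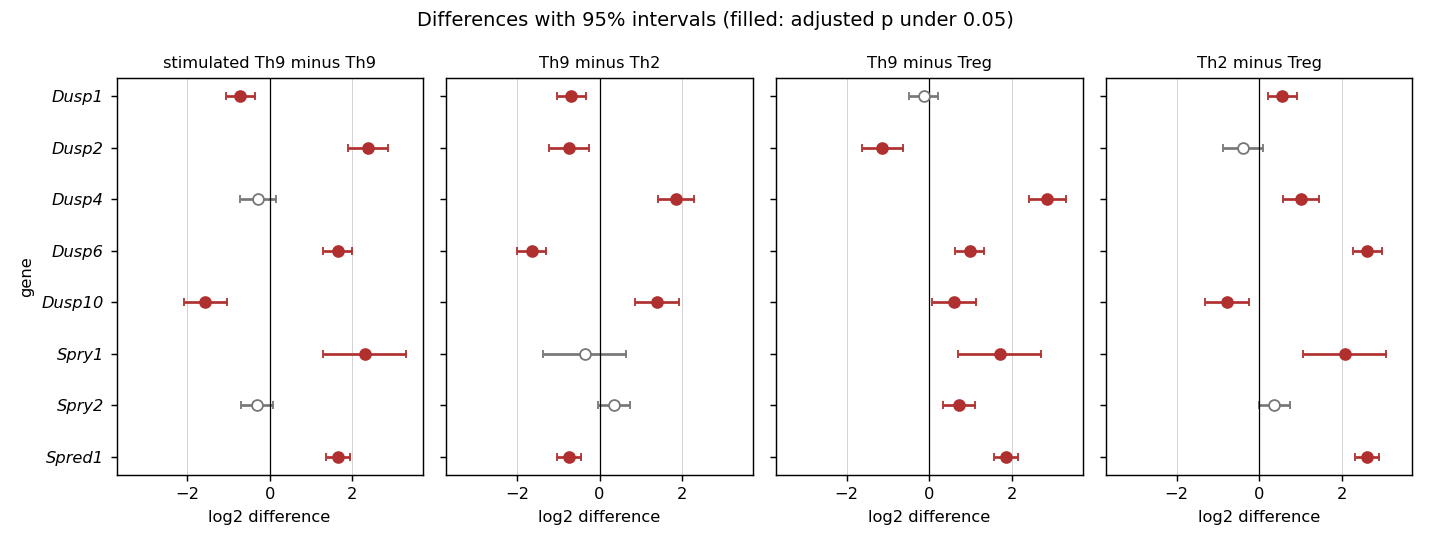
Log2 differences of the 8 tested genes in the 4 comparisons, with 95% intervals from limma (n = 3 arrays per group). Filled points passed at an adjusted p under 0.05 over all genes. Dusp2, Dusp6, Spry1 and Spred1 lie right of 0 and Dusp10 and Dusp1 left of 0 in the comparison with stimulated cells, and Dusp2 lies left of 0 in each of the other 3, passing the test in 2 of them.

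Other genes of the circuit were read from lists written for this purpose. Among 23 tested transcription factor and early genes that respond to ERK, 14 rose and 2 fell with stimulation, with a median log2 difference of 2.07, beside 31.9% of all genes higher and 32% lower. Egr4 rose at least 41.5-fold (adjusted p = 3.08e-06), a bound because it was not well above background in Th9 cells. The changes of Fosl1 (6.57 ± 0.28; adjusted p = 6.69e-08), Egr1 (5.20 ± 0.72; adjusted p = 8.29e-05) and Egr3 (4.60 ± 0.25; adjusted p = 1.56e-07) were among the largest measured, and all 4 are transcription factor genes. Those that fell were Ier3 (-2.49 ± 0.26; adjusted p = 1.08e-05), an early response gene of cell survival, and Jun (-0.59 ± 0.22; adjusted p = 0.0359), a partner in AP-1. Between Th9 and Th2 cells, 6 of these 23 were lower in Th9 cells and 1 was higher, beside 9.18% and 7.91% of all genes. The lower ones were Etv5 (-2.50 ± 0.38; adjusted p = 0.00158) and Etv4 (-2.48 ± 0.27; adjusted p = 0.000237), ETS factor genes that often accompany Dusp6 as ERK targets (Etv5 was well above background on 2 of the 3 Th9 arrays), and Fos, Fosl1, Myc and Egr3 (-1.95 to -1.30). The higher one was Jun (1.32 ± 0.22; adjusted p = 0.00283). With the slide block, Etv4 kept its call between Th9 and Th2 cells (-3.24, adjusted p = 0.00688) and the other 6 did not, Jun being nearest (2.16, adjusted p = 0.0587), while the counts with stimulation were again 14 higher and 2 lower, with a median of 1.56.

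Of the 9 other MAP kinase phosphatases, 4 rose and 2 fell with a median of 0.44, a share of calls near the 64% of all genes. Dusp14 (adjusted p = 0.000837; 1.17 with the slide block), Styx (0.92 ± 0.14; adjusted p = 0.000155), a catalytically inactive family member, and Dusp16 (0.60 ± 0.22; adjusted p = 0.0342), a JNK phosphatase, rose with stimulation, as did Dusp7 (0.44 ± 0.16; adjusted p = 0.0357), a cytoplasmic ERK phosphatase. Dusp19 (-1.37 ± 0.12; adjusted p = 2.55e-06) and Dusp22 (-0.56 ± 0.14; adjusted p = 0.00414) fell. With the slide block Dusp16 (0.18, adjusted p = 0.622), Dusp7 (0.50, adjusted p = 0.128) and Dusp22 (-0.33, adjusted p = 0.141) were not called, and Dusp3, a small phosphatase of ERK and JNK, was (1.96, adjusted p = 0.00147). The 2 remaining SPRED genes went opposite to Spred1: Spred2 fell by 1.38 on the log2 scale (adjusted p = 0.000459) and Spred3 by 3.06 (adjusted p = 4.68e-05; well above background on 2 of the 3 stimulated arrays), and both calls were kept with the slide block. Both were higher in Th9 and Th2 cells than in Treg cells, as Spred1 was, and neither was called between Th9 and Th2 cells. For Th9 against Treg cells, only 1 of the 2 calls was kept with the slide block. Spry3 stayed within background throughout. Between Th9 and Th2 cells, Dusp7 (-0.73 ± 0.16; adjusted p = 0.0133) and Dusp16 (-0.78 ± 0.22; adjusted p = 0.0364) were below their Th2 levels in Th9 cells and no other of the 9 phosphatases was called. Neither was called with the slide block. Without the block, 17.1% of all genes were called between Th9 and Th2 cells.

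Upstream, 11 of 18 regulators of RAS fell with stimulation and 4 rose, with a median of -0.71. Of all genes, 32% fell and 31.9% rose. Rasgrp3 was well above background on 2 of the 3 stimulated arrays. The 4 largest changes were falls of Rasgrp3 (-2.86 ± 0.74; adjusted p = 0.00599), Rasgrp2 (-2.64 ± 0.20; adjusted p = 8.86e-07) and Rasgrp4 (-2.50 ± 0.15; adjusted p = 2.76e-07), which encode activators of RAS family proteins, and of Rasa3 (-2.48 ± 0.21; adjusted p = 2.2e-06), which encodes a GTPase-activating protein. Among those that rose were Hras (2.32 ± 0.12; adjusted p = 1.25e-07), which encodes a RAS protein, and Rasal1 (1.82 ± 0.14), another GTPase-activating protein gene. With the slide block 10 fell and 4 rose, and Rasgrp3 gave -5.02 (adjusted p = 9.71e-05). Rasgrp3 is also expressed in B cells, whose markers fell in the same comparison (7 of 10 lower); their part was not tested. In the MAP kinase cascade, 7 of 20 genes rose and 9 fell, with a median of 0.07, where 64% of all genes were called. Map2k6 (-3.72 ± 0.32; adjusted p = 2.23e-06), an activator of p38, Mapk3 (-2.27 ± 0.17; adjusted p = 8.36e-07), which encodes an ERK, and Map3k1 (-2.27 ± 0.17; adjusted p = 8.48e-07) fell most, and Map2k3 (1.80 ± 0.12; adjusted p = 4.23e-07), another p38 activator, rose most. Between Th9 and Th2 cells, 3 of the 18 and 4 of the 20 genes were called, beside 17.1% of all genes: Rasgrp4 (1.00) and Braf (0.38) were higher, and Rasal1 (-1.34), Nras (-0.43), Ksr1 (-0.91), Mapk11 (-0.68) and Map3k5 (-0.59) were lower in Th9 cells. None of these 7 was called with the slide block, under which Rasgrp3 was higher in Th9 cells (5.03, adjusted p = 0.0287). Against Treg cells, calls in the RAS list ran both ways, with 6 higher and 6 lower in Th9 cells and 7 and 6 in Th2 cells. In the cascade, 8 were higher and 4 lower in each. Of all genes, 64.3% were called for Th9 and 63.1% for Th2 cells against Treg cells. With the slide block the counts in Th9 cells were 5 and 5 in the RAS list and 4 and 3 in the cascade. Of the 23 ERK-responsive genes, 7 were higher and 8 lower in Th9 cells without the block, and 10 and 8 in Th2 cells.

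**Figure D4:**
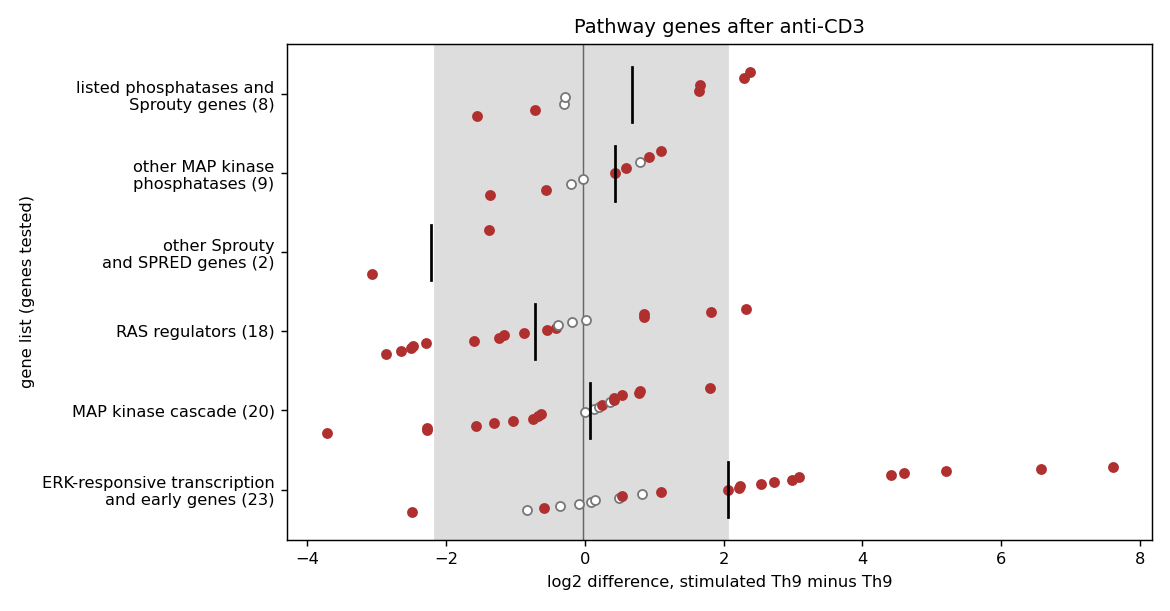
Log2 difference, stimulated Th9 minus Th9, of each tested gene of the 8 members and of 5 pathway lists. Filled points passed at an adjusted p under 0.05, vertical bars are list medians, the vertical line marks the median of all genes (-0.02) and the grey band their 5th to 95th percentile (-2.16 to 2.06). The ERK-responsive genes lie mostly to the right, with a median of 2.07, and the RAS regulators mostly to the left, with a median of -0.71.

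For the 5 members whose group means spanned over 2 log2 units, the nearest profiles were sought among the tested genes with a gene symbol. The measure was the root mean square difference over the 12 arrays after centring each gene on its own mean. Dusp6 was closest to Prdm1, the gene of the repressor Blimp-1, at 0.30, and to Angptl4, a secreted inhibitor of lipoprotein lipase, at 0.34. The group means of Prdm1 were 0.43 in Th2, -1.01 in Th9, 0.06 in stimulated Th9 and -2.04 in Treg cells, so its Th2 and stimulated Th9 cells were also the highest. Spry1 was closest to Nr4a2, a nuclear receptor gene induced by receptor signals, at 0.35, and to Nefh, a neurofilament gene, at 0.37. Spred1 was closest to Lrp8, a lipoprotein receptor gene, at 0.23, and to Il12rb1, a receptor chain for IL-12 and IL-23, at 0.24; the means of Il12rb1 were 5.27, 4.56, 6.07 and 3.10 in the same order. Dusp2 was closest to Simc1 at 0.20 and Zdhhc13 at 0.21, and Dusp4 to Cbr3, a carbonyl reductase gene, at 0.31 and Ptgs1, a cyclooxygenase gene, at 0.36. The means of Ptgs1 were near background in Th2 (-6.26) and Treg cells (-7.26), so the size of its differences is uncertain. All these distances were small against the spans of the members, which were 2.38 for Dusp2, 2.61 for Dusp6, 2.85 for Dusp4 and 3.53 for Spred1, with that of Spry1 wider still. They describe likeness over 12 arrays in 4 groups and carry no test.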

How the data were processed

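Total RNA of T cell cultures was hybridised to 12 one-colour Agilent arrays of 41174 probes. Per the file headers, the authors' scanner output was made with Agilent Feature Extraction 10.5.1.1 and holds spot intensity on a linear scale, background-subtracted and not normalized between arrays. A further deposited table, covering all arrays, gives log2 values whose medians (5.171 to 5.174) were those of values scaled between arrays. Each array's values correlated at 0.99958 to 0.99997 with its unscaled log2 signal. The deposited values gave 11441 genes called between stimulated and unstimulated Th9 cells, and quantile normalization gave 11442. As alternatives, both were therefore nearly the same. The method is not given in the sources used here.

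Control spots and outlier spots (60 to 94 per array) were left out, log2 of the processed signal was taken, each array's 75th percentile was subtracted, and spots of a probe were averaged. No member's probe was saturated. Probes well above background on at least 3 of 12 arrays were kept, and a gene was read on its probe with the highest mean. Positions are those of the array design (mm8), with no exon or UTR annotation of that build used here. Promoters came from RefSeq (GRCm38.p6); 8 of the 10 genes matched.

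All 12 arrays were fitted with limma 3.58.1 in R 4.3.3 (files read through jsonlite 2.0.0 and data.table, version 1.17.8): 1 mean per group, eBayes, 8 residual degrees of freedom, prior 2.5, Benjamini-Hochberg adjustment over 17925 genes (or 27128 probes), called at an adjusted p under 0.05. The fit was tested on simulated data. A fold "at least" sets the brighter group against the lowest signals well above background. Summed marker levels are log2 of the summed linear signals. The number of arrays limits the precision.

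Members and gene lists were chosen with earlier results of these data known. Named genes are all 10 members, up to 4 called genes per pathway list with the largest difference after stimulation, list genes behind a count of 5 or fewer (not all are reported here), and the 2 nearest profiles; a few further list genes were named after their values were seen. Alternatives changed background correction, normalization, filter, probe, arrays fitted, slide block, replicate block and each array left out; the values within a slide were added after seeing the data. Replicate numbers were taken to pair arrays where every same-numbered pair of 2 groups deviated from its group means together (correlation over 0.1). This held for Th2 and Th9 (0.201, 0.185 and 0.411), from the data and not from the labels, and for no other 2 groups, with 8 of all 18 pairs over 0.1. Th9 and stimulated Th9 missed the cutoff narrowly, on 1 pair (0.209, 0.108 and 0.095).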

Additional observations from a re-analysis of the deposited data

How the results depend on the processing

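Over 22 alternatives, the 6 members called between stimulated and unstimulated Th9 cells were called in the same direction in every one. Leaving out 1 array at a time gave 6 to 7 members called for stimulated minus unstimulated Th9, 4 to 6 for Th9 minus Th2, 6 to 7 for Th9 minus Treg and 6 to 7 for Th2 minus Treg. Slide as a fixed block took the members called from 6 to 0 between Th9 and Th2 and from 7 to 4 between Th9 and Treg cells. It took all genes called from 3064 to 326 and from 11521 to 6760; of the 326, 59.8% were higher in Th9 cells, against 46.3% of the 3064. No slide holds both groups of either contrast, and the cause was not tested. Reversed values were 0.22 for Dusp2, Th9 minus Th2, with the slide block, and, on the dimmer Spry2 probe, 0.87 for stimulated minus unstimulated Th9, -1.61 for Th9 minus Th2 and -0.34 for Th9 minus Treg. All genes called between Th9 and Th2 fell to 1906 and 1869 without Th2 replicates 1 and 2 and to 2036 and 1807 without Th9 replicates 1 and 2. Dusp2, Th2 minus Treg, was called in 4 of 22 alternatives. Among them were quantile normalization (-0.62, adjusted p = 0.0242), only the 6 arrays compared (-0.40, adjusted p = 0.0153) and leaving out stimulated Th9 replicate 3 (-0.40, adjusted p = 0.00531). Slide as a random block changed none of the 32 member results. Its estimated correlation was -0.003, so this fit was nearly the main fit and is no separate check.

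With a replicate block, 31 of the 32 member results kept their call, and Dusp2, Th9 minus Th2, lost it (-0.74, adjusted p = 0.0527). It changed no other call. Without the filter on dim probes the median of all genes moved by 0.12 for Th2 minus Treg. Spry4 and Spry3 were limited by signal near background.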
